A study of Caenorhabditis elegans with 12 samples.

Results

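The count table of a Caenorhabditis elegans small RNA study lists 55259 intervals beside its genes, each given by its coordinates and strand. The members described here are the 800 intervals that span 1000 bp or more and whose exact span occurs in fewer than 5 interval rows. The rule used coordinates alone and no count entered it, though it was set with earlier results of these data known. Of these, 675 spanned 1000 bp or more but under 3000 bp and 125 spanned 3000 bp or more. A further 181 long intervals, of 16 lengths that each occur in 5 rows or more, and 54278 intervals under 1000 bp were the remainder. The table does not say what the intervals are, and no source used here names the annotation behind them.

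Small RNA was sequenced from whole worms staged at the L4 larval stage and kept at 15 °C, both from extract (input) and after immunoprecipitation (IP) with an antibody against FLAG. The WAGO-1 P3G IP and WAGO-1 P3G input libraries came from a strain with WAGO-1::FLAG carrying P3G and WAGO-3 carrying P2G and A3E. The CSR-1 IP and CSR-1 input libraries came from a 1xFLAG::CSR-1 strain. Each of the 4 groups held 3 libraries lettered A, B and C. Residue numbers are those of the labels. Every group carried a FLAG-tagged Argonaute, so the inputs are not from untagged worms. The bait, the place of the tag and the mutations differed together and cannot be told apart, and IPs of WAGO-1 without P3G were not analysed here. Input RNA alone was enriched for small RNA with a kit, so each IP also differs from its input by that step, whose part in the results was not tested. The strain comparisons below ask how the 2 baits differ in the small RNAs they bring down, a question the series title sets for processed Argonautes.

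Argonautes are proteins that bind small RNAs and are guided by them to complementary transcripts. In the worm, RNA-dependent RNA polymerases copy target transcripts into small antisense RNAs with a 5' triphosphate, which is why a 5' polyphosphatase step is used before such libraries are ligated. CSR-1 carries small RNAs against germline-expressed genes, whereas WAGO-1 belongs to a branch that carries small RNAs against transposons, pseudogenes and silenced genes.

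The members covered 1.75 Mb in all, with a median span of 1586 bp and a range of 1001 to 37899 bp. By exact span, 481 were the only row of their length, 182 shared it with 1 other row, 93 lay in sets of 3 rows and 44 in sets of 4. Among the 800, 94 members, each under 3000 bp, lay within 5 bp of one of the repeated lengths, so the line between uncommon and repeated length is a narrow one. Chromosome V held 214 members, more than IV with 159, II with 113, X with 112, I with 106 and III with 96. The chromosome arms, taken as the outer parts when each chromosome is cut into 3 equal lengths, held 77% of members, against 87.5% of all intervals. A total of 409 members overlapped no RefSeq gene of WBcel235, the assembly that matches the ce11 build of the files. Another 318 overlapped a protein-coding gene, 61 a pseudogene, 9 another noncoding gene and 3 a structural or short RNA gene. Overlap was taken on either strand. No genome sequence of this build was at hand, so no sequence is shown.

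Libraries differed in depth by group. Counted reads, those on gene identifiers or intervals, numbered 7403373 to 9187525 in WAGO-1 P3G IP libraries and 334088 to 355028 in WAGO-1 P3G inputs. They numbered 2405005 to 4908321 in CSR-1 IP libraries and 373033 to 533232 in CSR-1 inputs. Reads on no listed feature were 31.7% to 32.3%, 72.8% to 74.1%, 19.9% to 27.5% and 53.8% to 59.3% of all reads in those same groups. One CSR-1 IP library stood apart: of the 150 members that reached the filter level in all 4 groups, library B was the lowest of its group for 3, C for 5 and A for all others. Over those 150 members the median coefficient of variation between replicates was 3.88% in the WAGO-1 P3G IP, 12.1% in the WAGO-1 P3G input, 19.8% in the CSR-1 IP and 11.7% in the CSR-1 input. Levels below are CPM, counts scaled to a fixed total of counted reads in each library, without further scaling.

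Of the 800 members, 774 had at least 1 count and 26 had none in any library. WAGO-1 P3G IP libraries held counts on 756 members, WAGO-1 P3G inputs on 544, CSR-1 IP libraries on 648 and CSR-1 inputs on 602. These numbers follow depth, and a member at 0 in an input was not detectable at that depth. Counts were concentrated in few members. In the WAGO-1 P3G IP 20 members held 50% of the member counts, in the WAGO-1 P3G input 21, in the CSR-1 IP 19 and in the CSR-1 input 16.

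As a whole, the long intervals of uncommon length made up a smaller part of the CSR-1 IP than of its input and a larger part of the WAGO-1 P3G IP than of its input. They took 5.79%, 5.88% and 5.86% of counted reads in WAGO-1 P3G IP libraries A, B and C, and 4.16%, 4.30% and 4.21% in the WAGO-1 P3G inputs. They took 1.70%, 2.52% and 2.41% in CSR-1 IP libraries, against 8.93%, 10.3% and 9.70% in the CSR-1 inputs. The 4 groups did not overlap.

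The mean share in the WAGO-1 P3G IP (5.85% ± 0.0467, SD, n = 3) was 1.38 times that in its input (4.23% ± 0.0697, n = 3). For CSR-1 the IP share (2.21% ± 0.444, n = 3) was 0.229 times that in its input (9.64% ± 0.681, n = 3). Between the IPs it was 2.64 times as large with WAGO-1 P3G as with CSR-1, while between the inputs the WAGO-1 P3G strain had 0.438 times the share of the CSR-1 strain. Each of these 4 differences had p = 0.1 in a 2-sided exact permutation test, the smallest that 3 libraries against 3 can give, and an adjusted p of 0.111 over 20 such tests. As a share of all reads, those on no listed feature included, the WAGO-1 P3G IP had 3.52 times its input and the CSR-1 IP 0.401 times its input.

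The remaining intervals moved the same ways in their share of counted reads. The WAGO-1 P3G IP share was 1.81 times the input share for long intervals of repeated length and 1.2 times for intervals under 1000 bp. Those ratios were 0.202 and 0.281 with CSR-1. Members held 52.9% ± 0.210 of interval reads in the WAGO-1 P3G IP and 52.2% ± 0.409 in its input (SD, n = 3 each), which overlapped (exact permutation p = 0.2). In the CSR-1 IP they held 59.5% ± 1.34, against 62.6% ± 0.504 in its input, without overlap (exact permutation p = 0.1, adjusted p = 0.111).

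**Figure D1:**
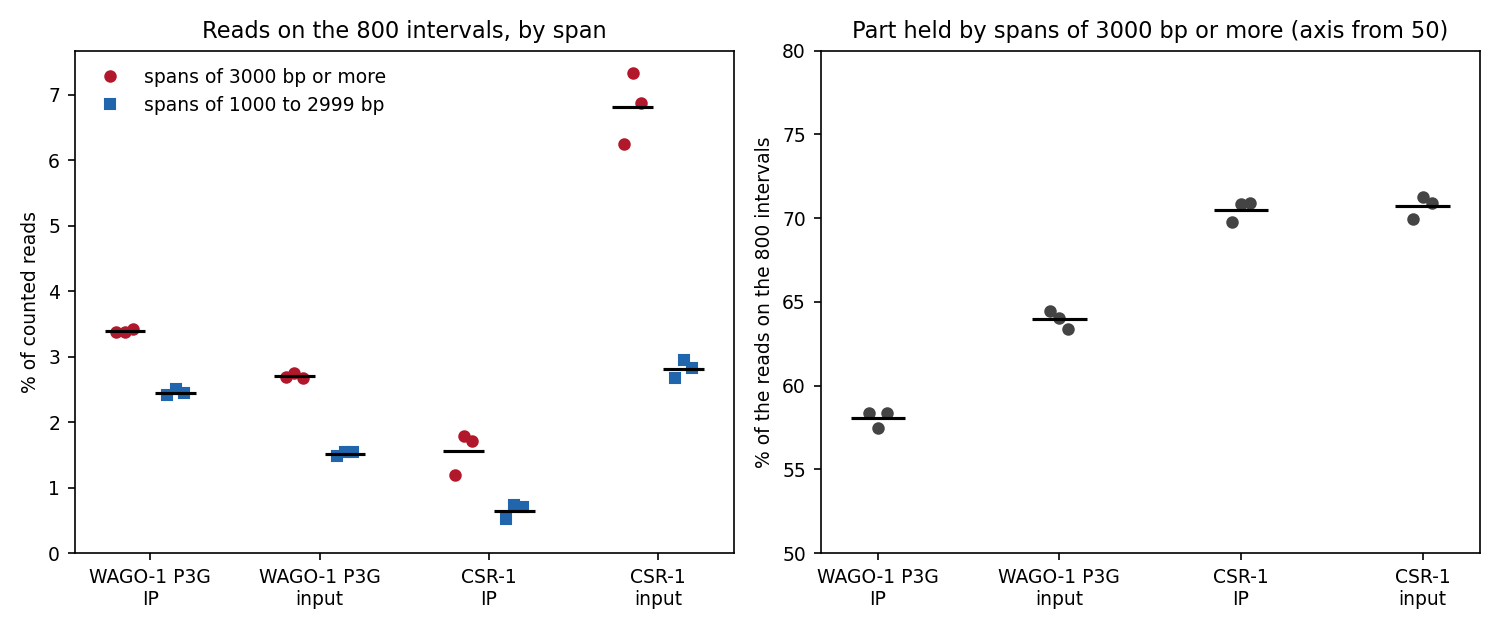
Share of counted reads held by members of 3000 bp or more and by shorter members (left), and the part of member reads on spans of 3000 bp or more (right, axis from 50%), with 1 point per library and a line at the group mean, in the order WAGO-1 P3G IP, WAGO-1 P3G input, CSR-1 IP and CSR-1 input. The longer members lie between 6.25% and 7.33% in the CSR-1 inputs, above all other libraries, and between 1.19% and 1.79% in the CSR-1 IP.

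Intervals of 3000 bp or more held most of the members' reads in every group. Their part was 58.1% ± 0.533 in the WAGO-1 P3G IP and 64.0% ± 0.543 in its input, and 70.5% ± 0.637 in the CSR-1 IP and 70.7% ± 0.671 in its input (SD, n = 3 each). The WAGO-1 P3G IP lay 5.90 percentage points under its input and 12.4 under the CSR-1 IP, each without overlap (exact permutation p = 0.1, adjusted p = 0.111). The CSR-1 IP and its input overlapped (exact permutation p = 0.5). Without the 1 member under 3000 bp that held the most counts, the WAGO-1 P3G IP fell by 4.31 and 9.17 points in those comparisons. A mean of log2 CPM, with 0.5 CPM added, weights each member alike. It was taken only over members that passed the filter on low counts described below, whereas the shares cover all members. It kept the direction of these shares for the WAGO-1 P3G IP relative to its input, but not between the IPs or between the inputs. The longer class minus the shorter came to -0.54 for the WAGO-1 P3G IP relative to its input. It was 0.04 for the WAGO-1 P3G IP relative to the CSR-1 IP and 0.67 for the WAGO-1 P3G input relative to the CSR-1 input.

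Per kb of span, the longer class also carried more reads. Its members summed to 49.8 ± 0.361 CPM per kb in the WAGO-1 P3G IP and 39.6 ± 0.679 in the WAGO-1 P3G input. With CSR-1 they summed to 22.9 ± 4.77 CPM per kb in the IP, against 99.98 ± 7.98 in the input. Members under 3000 bp summed to 22.9 ± 0.434 and 14.2 ± 0.344 CPM per kb in the WAGO-1 P3G IP and input, and to 6.08 ± 1.11 and 26.4 ± 1.28 in the CSR-1 IP and input (SD, n = 3 each). The ratio of IP to input was therefore nearly the same for both classes with CSR-1, 0.229 and 0.231. With WAGO-1 P3G it was 1.26 for the longer class and 1.61 for the shorter.

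Single members were tested with edgeR's quasi-likelihood test, fitted to all 12 libraries over all 10822 features that passed the filter on low counts, with Benjamini-Hochberg adjustment over all of them and a threshold of 0.05. The filter was passed by 284 members, 95 of 125 in the longer class and 189 of 675 in the shorter, and these held 99.0% of member counts. Of these, 46 reached the filter level in 1 group alone, and such a member had to differ between groups. Log2 fold changes rest on trimmed-mean (TMM) scaling, and their SE is an approximation from the F statistic.

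Most tested members were less abundant in the CSR-1 IP than in its input. By edgeR 3 were higher and 248 lower, where 37.5% and 33.6% of all features were called higher and lower. The median log2 fold change of those tested was -1.78, beside -0.08 over all features tested. In the longer class 1 was higher and 87 lower with a median of -1.69, and in the shorter class 2 were higher and 161 lower with a median of -1.81. The other tested intervals, 1002 in number, gave 45 higher and 716 lower with a median of -1.85. Among those, the 137 long intervals of repeated length gave 0 higher and 133 lower with a median of -1.95. By median the members thus lay close to intervals in general. With library totals as the only scaling, 1 was higher and 257 lower, and the median of all features was -0.50. Of all 10822 features, 3296 were then higher and 4381 lower.

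The most abundant member by mean level, V:17132108-17137381 (-), is 5274 bp long and overlaps the annotated gene Y102A5D.22 over 1.42% of its span. It had 1466, 1501 and 1454 CPM in WAGO-1 P3G IP libraries and 856, 847 and 907 CPM in WAGO-1 P3G inputs. In CSR-1 IP libraries it had 880, 1396 and 1354 CPM, against 5397, 6573 and 5932 CPM in CSR-1 inputs. No 2 compared groups overlapped, and the CSR-1 inputs stood far above the other 9 libraries. It was lower in the CSR-1 IP than in its input (log2 -1.90 ± 0.12, SE, edgeR adjusted p = 3.97e-13).

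On chromosome IV, the 7872 bp interval IV:913372-921243 (+), with F58H7.5 over 10.4% of it, had 671, 1123 and 1125 CPM in the CSR-1 IP, against 4175, 5161 and 4774 CPM in the CSR-1 input (log2 -1.88 ± 0.13, SE, edgeR adjusted p = 4.63e-12). A 7028 bp interval with no RefSeq gene, V:17421682-17428709 (-), had 1025, 1177 and 1146 CPM in the CSR-1 IP, against 5019, 4685 and 4246 CPM in the CSR-1 inputs. The groups did not overlap, and it was lower in the IP by 1.64 ± 0.09 on the log2 scale (SE, edgeR adjusted p = 6.04e-14). The interval II:2593083-2600283 (-), 7201 bp with no RefSeq gene, had 0.815, 1.25 and 1.46 CPM in the CSR-1 IP, against 24.7, 22.5 and 18.8 CPM in the CSR-1 input. Its log2 of -3.82 ± 0.44 was the smallest among all tested members in this comparison, but rested on 12 counts in the CSR-1 IP and 29 in its input.

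One long member went the other way. The interval III:8853088-8860968 (+) spans 7881 bp with no RefSeq gene inside, and its end lies 82 bp from plg-1, the mating plug gene, which in the reference strain is known to hold a Cer1 retrotransposon. Whether the interval is that element cannot be read from the files. It had 349, 225 and 264 CPM in the CSR-1 IP, against 126, 135 and 93.8 CPM in the CSR-1 input, with no overlap. It was higher by log2 1.66 ± 0.19 (SE, edgeR adjusted p = 1.82e-08). In this case CSR-1 IP library A was the highest of its group.

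The other 2 members higher in the CSR-1 IP were at low levels. The interval I:5297049-5298613 (+), with no RefSeq gene, had 22, 25.4 and 14.0 CPM in the CSR-1 IP, against 22.2, 9.38 and 10.7 CPM in the CSR-1 input, and these overlapped (edgeR adjusted p = 0.0192). The interval V:8998972-9000000 (+) lies in the pseudogene sri-23, of a family of serpentine receptor genes. It had 6.93, 7.90 and 9.62 CPM, against 2.47, 3.75 and 2.68 CPM (edgeR adjusted p = 0.0114). It reached the filter level in the CSR-1 IP alone, so it had to differ between groups. Its input levels are a few counts per library at the depth of these inputs.

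More members were higher than lower in the WAGO-1 P3G IP relative to its input. By edgeR 185 were higher and 9 lower, where 34.2% and 33.4% of all features were called higher and lower. The median was 1.02, beside 0.12 over all features. The longer class had 60 higher and 4 lower with a median of 0.75, and the shorter class 125 higher and 5 lower with a median of 1.15. The other tested intervals gave 522 higher and 75 lower with a median of 1.07. Within these, the 137 long intervals of repeated length gave 118 higher and 0 lower with a median of 1.35. Sizes and calls here depended on scaling: with library totals alone 94 members were higher and 32 lower, the members' median was 0.43 and that of all features -0.48. Of all 10822 features, 1908 were then higher and 4716 lower. In CPM, 15 of the 185 higher members had a lower mean in the IP than in the input. In CPM, 138 members lay above their input without overlap and 45 below it, where 25.6% and 46.3% of all features did so.

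The member with the most counts in all, III:3276149-3277198 (+), lies wholly within the protein-coding gene Y53G8AM.8 and is only 1050 bp long. It was picked out after its values were seen. It had 3353, 3568 and 3296 CPM in WAGO-1 P3G IP libraries and 1224, 1329 and 1298 CPM in WAGO-1 P3G inputs. In CSR-1 IP libraries it had 71.5, 136 and 114 CPM, against 413, 587 and 448 CPM in CSR-1 inputs. It was therefore highest by far in the WAGO-1 P3G IP, where it was also first in level per kb, at 3243 CPM per kb. It was higher in the WAGO-1 P3G IP (log2 2.00 ± 0.14, SE, edgeR adjusted p = 9.57e-12), lower in the CSR-1 IP (-1.80 ± 0.16, edgeR adjusted p = 1.79e-10) and higher in the WAGO-1 P3G inputs than in the CSR-1 inputs (1.31 ± 0.15, edgeR adjusted p = 1.33e-07).

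The interval V:18436471-18442343 (+), 5873 bp over the gene models ZK262.15, ZK262.8 and ZK262.9, had 2244, 1963 and 2232 CPM in the WAGO-1 P3G IP, against 1338, 1287 and 1028 CPM in its input. The groups did not overlap, and the difference was log2 1.41 ± 0.14 (SE, edgeR adjusted p = 6.41e-09). In the CSR-1 IP it had 520, 902 and 867 CPM, against 3273, 4098 and 3458 CPM in the CSR-1 input. It was thus lower there by 1.85 on the log2 scale.

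Smaller fold changes were seen at other abundant members. The interval I:5980182-5981873 (-), 1692 bp, overlaps simr-1, a Tudor domain gene of small RNA pathways, over 6.38% of its span, and had 1715, 1743 and 1739 CPM in the WAGO-1 P3G IP, against 1350, 1425 and 1344 CPM in its input. The interval II:3354125-3356987 (-), 2863 bp within bath-29, a gene of the BTB and MATH domain family, had 1719, 1736 and 1723 CPM, against 1356, 1335 and 1546 CPM. Both were higher, by log2 0.93 ± 0.09 and 0.89 ± 0.09 (SE, edgeR adjusted p = 1.68e-09 and 5.91e-09).

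The 9 members lower in the WAGO-1 P3G IP included 2 in pseudogenes. The interval II:2125041-2128860 (+), 3820 bp within the pseudogene sdz-29, had 3.36, 3.65 and 3.16 CPM in the WAGO-1 P3G IP, against 70.6, 89.8 and 87.3 CPM in its input. The interval V:4301284-4310683 (-), 9400 bp over the pseudogene ZC132.2, had 117, 134 and 115 CPM, against 618, 685 and 653 CPM. Neither overlapped its input, and the differences were log2 -4.0 ± 0.24 and -1.82 ± 0.13 (SE, edgeR adjusted p = 8.20e-13 and 2.65e-11).

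The same 2 were lower in the CSR-1 IP as well, by less. The sdz-29 interval had 45.8, 40.7 and 54.2 CPM there, against 109, 93.8 and 115 CPM in the CSR-1 input. The ZC132.2 interval had 63.4, 107 and 89.8 CPM, against 183, 225 and 271 CPM. Of the others, IV:4180226-4184978 (+), with no RefSeq gene, was abundant, with 145, 148 and 149 CPM in the WAGO-1 P3G IP, against 282, 251 and 293 CPM in its input (log2 -0.31 ± 0.11, SE, edgeR adjusted p = 0.0192). The rest were at lower levels. The interval III:2342072-2343099 (-) in ppm-1.D, of the PP2C phosphatase family, averaged 0.120 CPM in the IP, against 9.61 CPM in the input. It rested on few counts, since it and an untested neighbour together held 26 over the 12 libraries. The interval II:2386169-2387352 (+), with no RefSeq gene, had 7, 2 and 4 counts in the IP, against 9, 19 and 7 counts in the much shallower inputs.

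Across both IPs, 167 members were higher with WAGO-1 P3G and lower with CSR-1, each over its own input, a pair of calls shared by 20.2% of all features tested and by 412 of the 1002 other intervals. Another 73 were lower with CSR-1 and not called with WAGO-1 P3G, 18 higher with WAGO-1 P3G and not called with CSR-1, 8 lower in both, 3 higher with CSR-1 and not called with WAGO-1 P3G, and 1 lower with WAGO-1 P3G and not called with CSR-1. For 14 neither IP gave a call. Over all features those 6 combinations took 7.39%, 9.43%, 6.01%, 14.1%, 8.43% and 11.0%. The 167 summed to 53808 ± 436 CPM in the WAGO-1 P3G IP, against 35547 ± 514 CPM in its input, and to 19451 ± 4158 CPM in the CSR-1 IP, against 88754 ± 6432 CPM in its input (SD, n = 3 each).

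The difference of the 2 enrichments, tested as an interaction, was called above 0 for 242 members and below 0 for 5, where 33.9% and 40.0% of all features were called above and below. The median was 2.83, beside -0.34 over all features. The longer class had 81 above and 3 below with a median of 2.48, and the shorter 161 above and 2 below with a median of 3.0. The other tested intervals gave 738 above and 76 below with a median of 2.91. Within these, the 137 long intervals of repeated length gave 134 above and 1 below with a median of 3.31. Since the difference contains both inputs, the input levels given further on bear on it.

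The interval X:339292-340372 (-), 1081 bp within the protein-coding gene C04E7.3, had 1 of the largest differences, 4.77 ± 0.70 (SE, edgeR adjusted p = 1.47e-06). It had 53.8, 47.4 and 51.5 CPM in the WAGO-1 P3G IP, against 11.8, 35.9 and 19.7 CPM in its input. It had 0.407, 3.74 and 0.875 CPM in the CSR-1 IP, against 14.8, 11.3 and 18.8 CPM in its input. These levels rest on 14 counts in the CSR-1 IP, 19 in its input and 23 in the WAGO-1 P3G input. Neither IP overlapped its input.

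The 5 members called below 0 in the difference were as follows. The interval III:8853088-8860968 (+) next to plg-1 had 36.1, 36.6 and 36.0 CPM in the WAGO-1 P3G IP, against 76.5, 80.8 and 56.3 CPM in its input, a fold change that was not called (log2 -0.37, edgeR adjusted p = 0.184), and a difference of -2.03 ± 0.32 (edgeR adjusted p = 4.32e-06). The sdz-29 interval had -3.27 ± 0.29, the ZC132.2 interval -0.83 ± 0.20 and II:2386169-2387352 (+) -3.33 ± 0.63. The fifth, III:5459468-5461068 (-), with no RefSeq gene, had -2.43 ± 0.98 and rested on 2, 1 and 1 counts in the WAGO-1 P3G IP and 1, 2 and 2 in its input. It reached the filter level in the CSR-1 input alone.

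**Figure D2:**
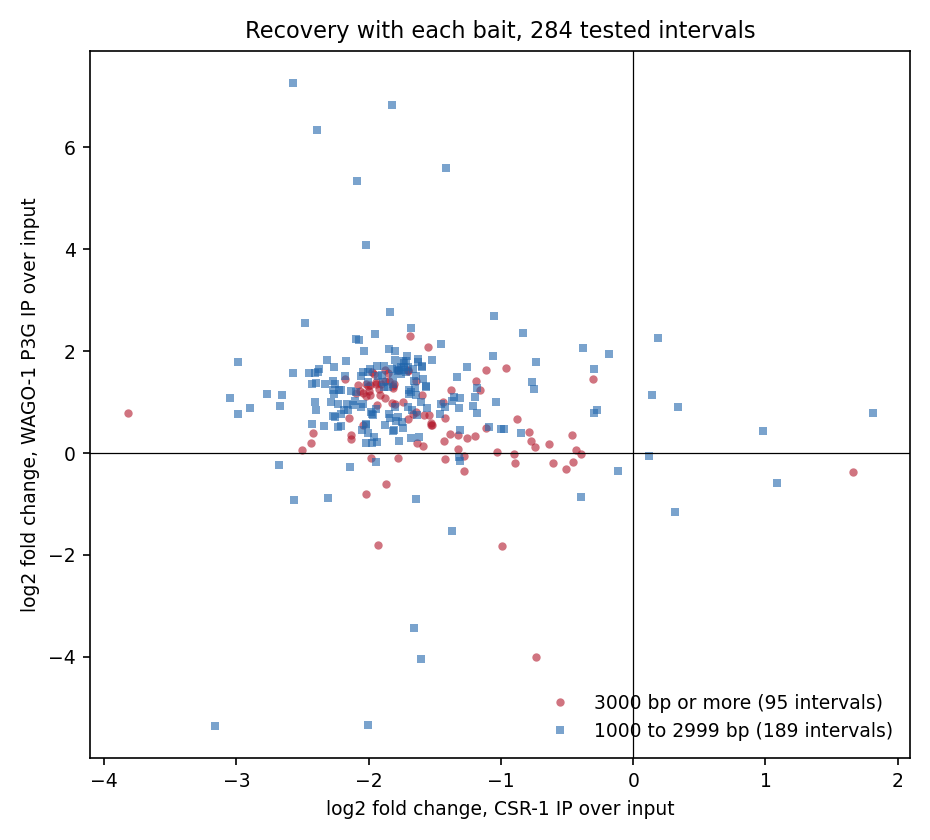
Log2 fold change of each tested member in the WAGO-1 P3G IP over its input, plotted against that in the CSR-1 IP over its input, with span class by colour. Most points lie to the side of lower CSR-1 IP and higher WAGO-1 P3G IP, where 167 members were called in both, and fitted values of the 6 members with 0 counts in all WAGO-1 P3G inputs depend on the prior count.

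Before any IP the strains already differed. Members were lower in WAGO-1 P3G inputs than in CSR-1 inputs far more often than higher: by edgeR 28 were higher and 157 lower, where 19.6% and 18.8% of all features were called higher and lower. The median was -1.24, beside 0.03 over all features. The longer class had 16 higher and 51 lower with a median of -0.86, and the shorter 12 higher and 106 lower with a median of -1.36. The other tested intervals gave 79 higher and 384 lower with a median of -0.73. Within these, the 137 long intervals of repeated length gave 1 higher and 101 lower with a median of -1.07. The 865 under 1000 bp gave 78 higher and 283 lower with a median of -0.51. In whole worms, fewer cells that make such RNA and less of it per cell cannot be told apart.

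The 157 lower members summed to 24840 ± 344 CPM in WAGO-1 P3G inputs, against 82828 ± 6209 CPM in CSR-1 inputs (SD, n = 3 each). The 28 higher members summed to 7887 ± 256 CPM, against 3959 ± 90.9 CPM. The most depleted member with counts in every library was I:7842678-7844588 (+), 1911 bp within F30F8.10, with 11.8, 5.99 and 11.3 CPM in WAGO-1 P3G inputs, against 299, 291 and 271 CPM in CSR-1 inputs (log2 -4.96 ± 0.26, SE, edgeR adjusted p = 6.99e-14). At the other end, the largest value among members with counts in every library belonged to V:14761618-14764280 (+), 2663 bp within the pseudogene Y50E8A.14, which had 121, 156 and 130 CPM, against 22.2, 11.3 and 24.1 CPM (log2 2.79 ± 0.26, edgeR adjusted p = 3.23e-09).

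Both of these were higher in the WAGO-1 P3G IP than in its input and lower in the CSR-1 IP than in its input. The F30F8.10 interval had 20.5, 18.5 and 16.0 CPM in the WAGO-1 P3G IP and 51.5, 58.2 and 59.8 CPM in the CSR-1 IP. The Y50E8A.14 interval had 265, 298 and 252 CPM in the WAGO-1 P3G IP and 2.44, 3.74 and 4.08 CPM in the CSR-1 IP. The IP levels therefore followed the order of the inputs, in opposite ways for the pair.

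Some members had no count at all in the 3 WAGO-1 P3G inputs, so that their fold changes are bounds, taken against 3 counts over the group. The interval III:11965371-11966526 (-), within Y56A3A.28, had 0, 0 and 0 counts in those inputs, against 12, 21 and 15 in the CSR-1 inputs, which makes it at least 12.6-fold lower. In the WAGO-1 P3G IP it had 52, 44 and 48 counts, at least 1.98-fold higher than in its input. The interval IV:11033591-11036101 (-) overlaps hrg-6, a gene named for heme response. It had no count in the WAGO-1 P3G inputs, against 12, 8 and 12 counts in the CSR-1 inputs, at least 8.37-fold lower. Both intervals reached the filter level in the CSR-1 input alone, so they had to differ between groups. Altogether 6 tested members were at 0 and 32 at 0 to 3 counts in the WAGO-1 P3G inputs.

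**Figure D3:**
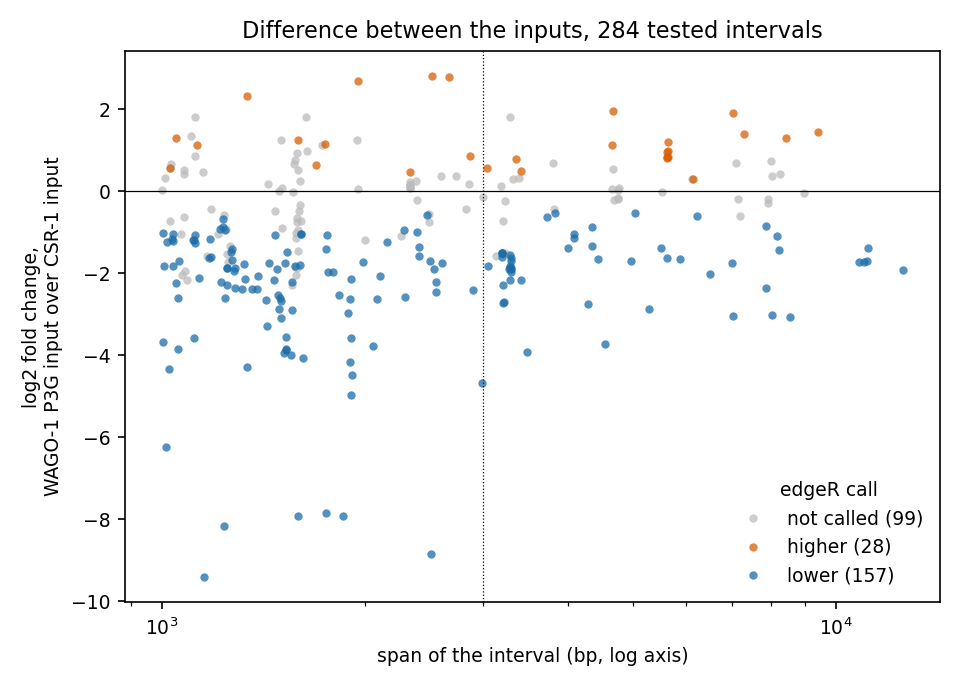
Log2 fold change of each tested member in WAGO-1 P3G inputs over CSR-1 inputs, against span on a log axis, with called members coloured. Called members lie mostly below 0 (157 lower and 28 higher), at spans on both sides of 3000 bp, and the points of the 6 members at 0 counts in the WAGO-1 P3G inputs depend on the prior count.

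Several of the members with the most counts on chromosome V lay in neighbouring sets, joined here where gaps were at most 20 kb. Between 17126624 and 17157642 on V lay 5 members, all on the minus strand, with 151691 counts over the 12 libraries. They include V:17132108-17137381 (-), described above, and 2 bp beyond its end V:17137383-17141676 (-), which holds the microRNA gene mir-257. This 4294 bp interval had 834, 827 and 818 CPM in the WAGO-1 P3G IP, against 862, 835 and 856 CPM in its input. In CSR-1 libraries it had 680, 1173 and 1115 CPM in the IP, against 4790, 5815 and 5530 CPM in the input. Its WAGO-1 P3G fold change was called higher with TMM scaling (log2 0.55 ± 0.13, edgeR adjusted p = 0.000704) but was -0.04 with library totals alone (edgeR adjusted p = 0.819). The counts do not separate reads of the microRNA from others in the interval.

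The third of the set, V:17142308-17143636 (-), 1329 bp with no RefSeq gene, had 949, 959 and 922 CPM in the WAGO-1 P3G IP, against 730, 775 and 791 CPM in its input. All 5 members were lower in the CSR-1 IP, with log2 values from -2.31 to -1.55, and lower in WAGO-1 P3G inputs than in CSR-1 inputs, from -3.98 to -1.71. A second set, V:5180270-5189607, held 3 plus-strand members with 102236 counts. Its first, V:5180270-5183550 (+), 3281 bp over C03A7.2 and C03A7.13, had 1601, 1523 and 1658 CPM in the WAGO-1 P3G IP, against 1062, 1152 and 1062 CPM in its input. In the CSR-1 IP it had 395, 669 and 669 CPM, against 2744, 3304 and 2994 CPM in its input.

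Some equal spans on V recur at a fixed distance. In 4 pairs of members, with spans of 2408, 1120, 1271 and 7934 or 7935 bp, the second lay 42094 bp downstream of the first on the same strand. The longest pair is V:8836864-8844797 (+) and V:8878958-8886892 (+), with no RefSeq gene in either. They had 2003, 2019 and 2028 CPM and 2000, 2060 and 2069 CPM in the WAGO-1 P3G IP, against 1512, 1580 and 1510 CPM and 1494, 1646 and 1465 CPM in its input. In every library the count of the first was 0.960 to 1.11 times that of the second. These may be copies whose reads the counting divided between them, so that the pair is not 2 independent members, and the rule for placing reads with several alignments is not known here.

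The pair had 254, 462 and 411 CPM and 262, 452 and 410 CPM in the CSR-1 IP, against 1551, 1896 and 1777 CPM and 1497, 1823 and 1606 CPM in the CSR-1 input. The inputs of the 2 strains were not told apart for either (log2 -0.27 ± 0.13 and -0.19 ± 0.13, SE, edgeR adjusted p = 0.108 and 0.267). In all members of the 2 sets above, the WAGO-1 P3G inputs were lower than the CSR-1 inputs.

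**Figure D4:**
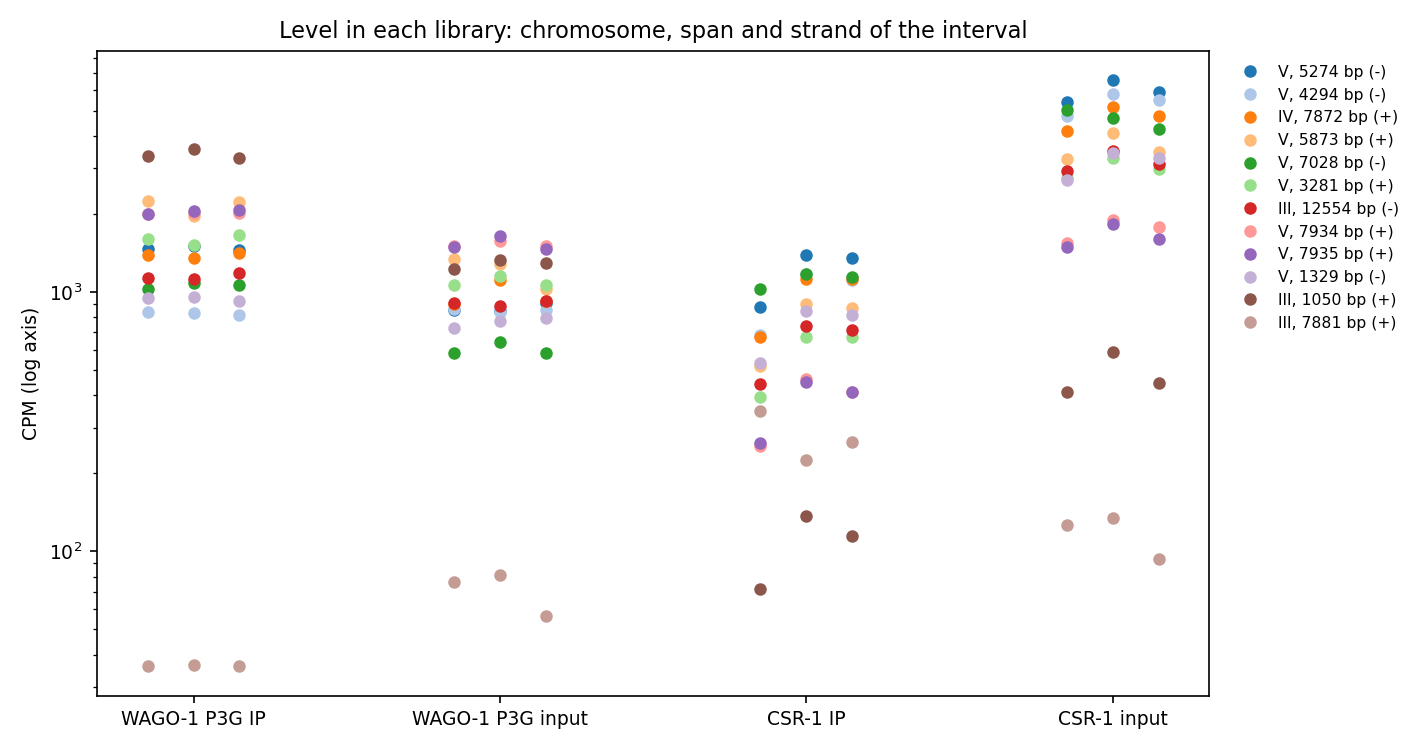
CPM on a log axis of the 10 members with the highest mean levels, of the member with the most counts and of the 7881 bp interval next to plg-1, with 1 point per library in the groups WAGO-1 P3G IP, WAGO-1 P3G input, CSR-1 IP and CSR-1 input. CSR-1 IP points lie below the CSR-1 inputs for each of these except the 7881 bp interval on chromosome III, which lies above.

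Among members of 3000 bp or more, spans also cluster. Chaining spans that lie within 5 bp of each other gave 5 sets of 3 or more members, a grouping made after the data were seen and therefore given without a test of its own. The 12 members of 3278 to 3295 bp lay on 6 chromosomes and included V:5180270-5183550 (+). Of the 11 that passed the filter, 11 were higher in the IP of WAGO-1 P3G, 10 lower in the CSR-1 IP and 10 lower in WAGO-1 P3G inputs than in CSR-1 inputs. Over all features, 34.2% were higher and 33.4% lower in the WAGO-1 P3G IP, and 33.6% lower in the CSR-1 IP. Between the inputs, 19.6% of all features were higher and 18.8% lower. The 12 summed to 2382 ± 73.3 CPM in the WAGO-1 P3G IP, against 1597 ± 33.2 CPM in its input. With CSR-1 they summed to 907 ± 205 CPM in the IP, against 4707 ± 334 CPM in its input (SD, n = 3 each). Most of these sums came from V:5180270-5183550 (+), which held 50795 counts over the 12 libraries. No other member of the set held more than 4952. Of the 10 members of 3190 to 3207 bp, 8 passed: 4 were higher and 1 lower in the WAGO-1 P3G IP, 7 lower in the CSR-1 IP, and 6 lower and 0 higher in WAGO-1 P3G inputs than in CSR-1 inputs. The 3 members of 4657 to 4664 bp summed to 228 ± 29.7 CPM in WAGO-1 P3G inputs, against 148 ± 15.9 CPM in CSR-1 inputs, with 2 called higher and 0 lower. The 3 of 4753 to 4754 bp summed to 535 ± 45.8 CPM, against 531 ± 21.2 CPM, with no call in either direction.

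The 7 members of 5616 to 5625 bp, on chromosomes II, IV and V, were all on the plus strand and all passed the filter. Of these, 6 were higher and 1 lower in WAGO-1 P3G inputs than in CSR-1 inputs, where the members as a whole had 28 higher and 157 lower. Of all features, 19.6% were higher and 18.8% lower. The 7 summed to 937 ± 18.6 CPM in the WAGO-1 P3G IP, against 1200 ± 72.3 CPM in its input. With CSR-1 they summed to 219 ± 37.2 CPM in the IP, against 789 ± 60.5 CPM in its input (SD, n = 3 each). In the CSR-1 IP 7 were lower, and in the WAGO-1 P3G IP 2 were higher and 0 lower.

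The 1 lower member of that set, V:8574720-8580335 (+), is also the shortest at 5616 bp and lies in symk-1, which encodes the RNA 3' end processing factor symplekin. It had 118, 74.8 and 64.8 CPM in WAGO-1 P3G inputs, against 225, 270 and 244 CPM in CSR-1 inputs. The longest, V:3325117-3330741 (+), with no RefSeq gene, averaged 165 CPM in WAGO-1 P3G inputs, against 86.7 CPM in CSR-1 inputs. Intervals of near-equal span may be copies of one sequence that share reads, which could not be examined without the genome. Across libraries, II:14687826-14693449 (+) had 0.833 to 1.29 times the count of V:3325117-3330741 (+), and IV:507687-513308 (+) had 0.844 to 1.49 times. A wider pair, II:1076026-1081644 (+) against IV:701905-707528 (+), ran from 0.512 to 1.47. The symk-1 interval ran from 0.359 to 3.61 times V:765783-771399 (+). Members of this set are thus not known to be independent.

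**Figure D5:**
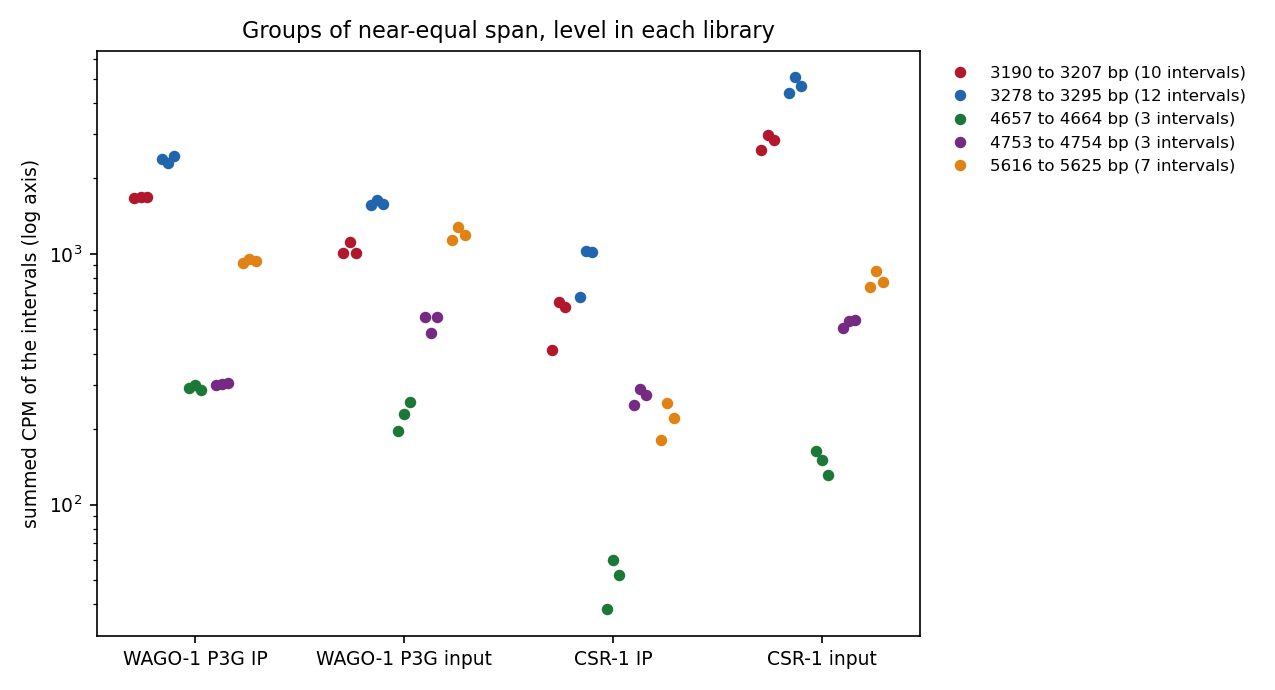
Summed CPM on a log axis of the 5 sets of members of near-equal span of 3000 bp or more, with 1 point per library and colours for the sets. The 3278 to 3295 bp set is highest in CSR-1 inputs (4707 CPM on average), whereas the 5616 to 5625 bp set is highest in WAGO-1 P3G inputs (1200 CPM on average). Most of the 3278 to 3295 bp sum comes from V:5180270-5183550 (+).

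The longest tested members gave no exception to the main order. The longest, III:13230129-13242682 (-), 12554 bp with Y43F4A.3 over 9.37% of it, had 1133, 1121 and 1182 CPM in the WAGO-1 P3G IP, against 909, 883 and 921 CPM in its input. In CSR-1 libraries it had 443, 742 and 715 CPM in the IP, against 2937, 3514 and 3112 CPM in the input. The next 3, X:9191835-9202991 (+), V:18443955-18455084 (+) and V:19270582-19281574 (-), of 11157, 11130 and 10993 bp, were higher in the WAGO-1 P3G IP by log2 1.14, 1.36 and 1.12 and lower in the CSR-1 IP, at -1.60, -1.81 and -2.02. The 2 longest members of all were not tested. The 37899 bp interval III:7405384-7443282 (+) had 89 counts over the 12 libraries and the 13177 bp interval I:4281427-4294603 (-) had 16.

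Near the lower limit of span, 9 members within 10 bp of it included 4 that passed the filter. Of these V:6419011-6420018 (-), in urb-1, averaged 503 CPM in the WAGO-1 P3G IP and 235 CPM in its input, and 176 CPM in the CSR-1 IP and 777 CPM in its input. The shortest, X:288211-289211 (+), averaged 6.95 and 5.81 CPM in the WAGO-1 P3G IP and input, and 0.799 and 5.38 CPM in the CSR-1 IP and input. Just outside lay 10 intervals of 990 bp or more, 3 of which passed the filter, and III:13522043-13523033 (+) averaged 7.0 and 11.7 CPM in the WAGO-1 P3G IP and input, and 2.11 and 6.63 CPM in the CSR-1 IP and input. Just under 3000 bp, X:7361115-7364110 (+), over the pseudogene C07D8.2, averaged 364 and 323 CPM in the WAGO-1 P3G IP and input, and 71.4 and 333 CPM in the CSR-1 IP and input.

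Calls by annotation are set beside the 34.2% of all features higher in the WAGO-1 P3G IP and the 33.6% lower in the CSR-1 IP, and differences between classes were not tested. Of members with no RefSeq gene that passed the filter, 83 of 132 were higher in the WAGO-1 P3G IP and 114 lower in the CSR-1 IP. For protein-coding genes these were 74 and 98 of 113, and for pseudogenes 25 and 32 of 35. In the outer parts of the chromosomes 138 of 206 members were higher in the WAGO-1 P3G IP, and in the central parts 47 of 78. No member overlapped any of the 33 genes listed for Argonautes and small RNA pathways, a list that does not hold simr-1, nor a gene of the short lists for P granules, spermatogenesis, muscle, intestine and cuticle, nor plg-1 itself. Of the neuronal list 1 did, V:10267944-10269899 (+) in ric-4, the SNAP-25 gene of synaptic vesicle release, and it was not called in any of the 4 comparisons.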

How the data were processed

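The authors deposited raw counts, not normalized, of small RNA reads per gene identifier and per interval for 12 libraries. HTSeq 0.11.2, cutadapt 2.3, Bowtie 1.2.3, SAMtools 1.9 and the build ce11 are named in the submitters' processing notes. The interval annotation, the strand setting and the placing of reads with several alignments are not named in those notes or the labels, and the table's entry for non-unique reads was 0 in every library. Per the labels' protocols, libraries were read for 50 cycles, single end, after 5' polyphosphatase treatment, and inputs began from 500 ng of total RNA. Descriptions of some samples open with text that goes against their titles. Titles, sample names and antibody fields matched and set the groups.

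Members and lists were chosen with earlier results of these data known. Counts on identifiers and intervals were fitted together in edgeR 4.0.16 (R 4.3.3), by quasi-likelihood with 8 residual degrees of freedom, a mean per group, TMM factors and the filterByExpr filter, with Benjamini-Hochberg adjustment over 10822 features. TMM factors were 0.805 to 0.919 in IP libraries and 1.12 to 1.25 in inputs. The SE is the size of log2 divided by the square root of F. Shares were compared by exact permutation. Nothing says that replicates came from separate cultures, so the spread behind each p-value may be technical. Intervals and bounds cover counting error only. On simulated counts of 10822 features for the CSR-1 comparison, 98% of 4-fold increases and 91.8% of decreases to 1/4 were called, but 40.8% of 2-fold increases and 20.4% of decreases to 1/2.

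Named members were, in each comparison, the 5 with the largest and the 5 with the smallest log2 among those called, with a mean of at least 5 CPM and no overlap, then the 10 with the highest mean CPM, the 4 longest tested and the tested ones within 10 bp of a span limit. Not all of these are printed. Members named outside this rule, among them single members of the span sets, were chosen after their values were seen. Alternatives were median-of-ratios factors, library totals, no filter, DESeq2 1.42.0, a replicate block, interval rows alone, other member limits and leaving out each library.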

Additional observations from a re-analysis of the deposited data

Results flagged for a closer look

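The enrichments of the 2 baits differed by the interaction test, and in opposite directions, for 167 members that were higher in the WAGO-1 P3G IP and lower in the CSR-1 IP than in their inputs, as were 20.2% of all features. The reverse order of enrichments, lower with WAGO-1 P3G, was called for 5 members, beside 40.0% of all features. The inputs, whose levels enter both counts, also differed between strains, with 28 members higher and 157 lower, and their part in the counts was not tested. CSR-1 IP library A was the lowest of its group for most of the 150 members at the filter level in all 4 groups. Without it the difference was called above 0 for 209 members and below 0 for 4, of 219 that passed the filter. Of all 8473 features then tested, 3084 were called above and 3754 below.

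By member, the difference of enrichments, WAGO-1 P3G minus CSR-1 on the log2 scale, was 4.77 for X:339292-340372 (-) and -2.03 for III:8853088-8860968 (+). It was -3.27 for the sdz-29 interval II:2125041-2128860 (+) and -3.33 for II:2386169-2387352 (+). For III:5459468-5461068 (-) it was -2.43, and this member was tested in only 10 of 16 alternatives. Its call was lost with no filter on low counts (edgeR adjusted p = 0.113). The call was also lost without WAGO-1 P3G input B or C or CSR-1 input A or C (edgeR adjusted p = 0.0556 to 0.116). For the ZC132.2 interval V:4301284-4310683 (-) it was -0.83, and it came to -0.38, -0.38 and -0.39 without WAGO-1 P3G IP A, WAGO-1 P3G IP C and CSR-1 IP B, with edgeR adjusted p = 0.122, 0.121 and 0.0688.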

How the results depend on the processing

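Median-of-ratios factors, DESeq2 and interval rows alone left each count of calls within 1.5 times its value. Letters pair samples by name only: same-letter deviations correlated at -0.00947 to 0.313, and the replicate block gave 3 higher and 252 lower for CSR-1, 193 and 9 for WAGO-1 P3G, 247 and 5 for the difference and 28 and 158 for the inputs. Library totals alone gave 1 higher for CSR-1, and 94 higher and 32 lower for WAGO-1 P3G, and turned V:17137383-17141676 (-) to -0.0425. With no filter 5 were higher for CSR-1. Members of a span found in 1 row, fewer by construction, gave 163 lower for CSR-1, 118 higher for WAGO-1 P3G, 153 above for the difference and 103 lower for the inputs. Members with no other row within 5 bp of their span, a limit chosen after seeing the data, gave 1 higher and 51 lower for CSR-1, 33 and 1 for WAGO-1 P3G, 47 and 2 for the difference and 6 and 30 for the inputs.

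Leaving out 1 library also changed how many members passed the filter. Counts higher and lower ran from 1 to 5 and 210 to 273 for CSR-1, 162 to 240 and 4 to 12 for WAGO-1 P3G, 208 to 287 and 3 to 7 for the difference, and 21 to 29 and 146 to 166 for the inputs. Ratios of shares ran from 0.213 to 0.256 (CSR-1 IP over input), 1.37 to 1.40 (WAGO-1 P3G IP over input), 2.37 to 2.85 (WAGO-1 P3G IP over CSR-1 IP) and 0.423 to 0.454 (inputs). The part on spans of 3000 bp or more, in percentage points, ran from -0.60 to 0.139 for CSR-1 IP minus input, with 0.139 without CSR-1 IP A and 0.0547 without CSR-1 input B, the 2 that turned its sign. It ran from -6.19 to -5.59 for WAGO-1 P3G IP minus input, -12.8 to -12.1 between IPs and -7.12 to -6.46 between inputs.

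As shares of all reads the ratios were 0.401 (CSR-1), 3.52 (WAGO-1 P3G) and 0.273 (inputs). Without the member with the most counts, the WAGO-1 P3G ratio was 1.34 and the parts on longer spans were -4.31, -9.17 and -5.10 points for WAGO-1 P3G IP minus input, IP minus IP and inputs. By mean log2 level of tested members, with 0.5 CPM added, the longer class minus the shorter was -0.54 for WAGO-1 P3G IP minus input. It turned sign for CSR-1 IP minus input (0.08), IP minus IP (0.04) and inputs (0.67). Of the alternatives for named members, 1096 kept direction and call, 21 lost the call and 1 turned. Alternatives in which a member failed the filter are not among these, so some results had 10 alternatives and others 16. Depth limits the inputs most, where 32 tested members had 0 to 3 counts in WAGO-1 P3G inputs.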
